A study of Sus scrofa with 36 samples.

Results

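The livers of heat-stressed Creole pigs were set against those of heat-stressed Large White pigs. The comparison held 12 of the 36 liver arrays of the series, chosen by the breed and temperature in the sample labels, with 6 animals per breed. Creole (CR) pigs are local to the Caribbean, while Large White (LW) pigs come from Europe and were selected for lean growth. All animals were castrated male growing pigs, moved to a climatic room at 11 weeks of age, and the heat-stressed (HS) animals were slaughtered after up to 5 days of heat. The labels give 30 °C for the HS animals and the growth protocol 32 °C, and the group is called HS here. The 12 thermoneutral (TN, 24 °C) animals of the same breeds, 6 per breed, were slaughtered before the heat and were used to ask whether the breed difference was the same without it. The 6 crossbred (F1) HS animals enter as a further level. Per the study's methods, pigs of a breed came from a few blocks of littermates and were penned by breed. Litter and pen are not in the labels, so the p-values measure the spread between animals, some of which were littermates, and may be too small.

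The liver is built mainly of hepatocytes, which make plasma proteins, bile acids and glucose and clear amino acids, lipids and foreign compounds. Its blood channels are lined by sinusoidal endothelial cells and patrolled by resident macrophages (Kupffer cells), which take up particles, iron-loaded haemoglobin and microbial products arriving from the gut. In whole tissue, fewer cells of a type and less RNA per cell cannot be told apart.

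Liver RNA was hybridised to 1-colour Agilent pig arrays of 60-base probes. Over the 12 arrays the median probe signal was 75.5 to 89.0 intensity units against a background of 20 to 25, and 40314 to 44025 of 60306 non-control spots were well above background. On the first principal component of all 36 arrays, the 6 CR HS animals lay between 11.98 and 35.37 and the 6 LW HS animals between -34.34 and -24.80, with no overlap. Correlations between arrays over the kept probes were 0.987 to 0.994 within CR HS, 0.991 to 0.994 within LW HS and 0.982 to 0.990 between them. Among the LW TN animals, replicates 1 and 6 lay apart from the other LW animals on this component, at -4.83 and -3.04, and they touch only the results that use TN animals. The summed signal of the 8 hepatocyte markers measured, including ALB (albumin) and TTR (transthyretin), was 20.95 to 21.00 on the log2 scale in CR HS and 20.98 to 21.07 in LW HS. None of the 8 was called different, against 1 with the authors' log2 table. Quantile normalization gives every array the same set of values, which holds very bright probes such as those of ALB close together. The sum therefore cannot show equal hepatocyte content.

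Of 44796 probes, 7463 (16.7%) passed the threshold of an adjusted p of 0.05 in limma, 3598 (8.03%) higher and 3865 (8.63%) lower in CR HS. Probes called higher had a median log2 difference of 0.41 and probes called lower one of -0.46, and 115 and 225 of them respectively differed by at least a log2 unit. The median over all probes was 0.00. The 12 values did not overlap between breeds for 3439 of the called probes, and for 8.69% of all probes. By gene, with each symbol represented by its brightest kept probe, 748 of 11451 symbols (6.53%) were higher and 1094 (9.55%) lower in CR HS, 16.1% in all. On the autosomes, called symbols made up from 12.8% of those measured (chromosome 11) to 21.9% (chromosome 16). They were 20.4% on chromosome X, 3 of 13 on the mitochondrial genome and 2 of 4 on chromosome Y.

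The count depended on which slides were used. A fit that compared the breeds within slides called 7160 probes. Leaving out slide 3 gave 2687 probes leaving out slide 4 gave 2692 and leaving out slide 5 gave 4904. Each of these removed 3 of the 12 animals.

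The genes highest in CR HS relative to LW HS were described first among those whose values did not overlap between the breeds. MYL6B, a myosin light chain gene on chromosome 5 (21554351 to 21558995 in Sscrofa11.1), led them. Its log2 signal was 9.38, 9.57 and 9.89 (lowest, median and highest of 6) in CR HS and 7.19, 7.53 and 7.87 in LW HS, which is 2.12 higher (SE 0.354, adjusted p = 0.00023). Every CR HS animal was thus more than a log2 unit above every LW HS animal, at the gene's single kept probe.

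DPM1 encodes the catalytic subunit of dolichol-phosphate mannose synthase, which supplies mannose for protein glycosylation. The 6 CR HS animals were at 9.84, 11.31, 11.32, 11.35, 11.19 and 9.66, and the 6 LW HS animals lay between 9.23 and 9.50. Of the CR HS animals, 4 thus stood well above all others and replicates 1 and 6 lay close to LW HS, and the difference of means was 1.40 ± 0.316 (SE, adjusted p = 0.00331). Of its 5 probes, 3 were called higher, the other 2 differed by -0.14 and 0.06, and the mean of all 5 gave 0.64. PHF2, a histone demethylase gene, had the reverse shape: CR HS lay between 8.43 and 8.86 while LW HS replicates 1 and 4 were at 8.22 and 8.14 and the other 4 between 7.05 and 7.26. Its difference was 1.13 ± 0.198 (SE, adjusted p = 0.000381).

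USF1 encodes a transcription factor that acts on glucose- and lipid-responsive liver genes. It was 7.79, 8.05 and 8.37 (lowest, median and highest) in CR HS and 6.72, 6.80 and 6.92 in LW HS, and 2 of its 4 different probe sequences were called higher. The difference was 1.28 ± 0.209 (SE, adjusted p = 0.000173). MLKL, the executor of necroptotic cell death, was a dim gene, at 6.08, 6.30 and 6.64 against 5.30, 5.43 and 5.98, and was well above background on 2 of the 6 LW HS arrays. It was 0.82 ± 0.167 higher (SE, adjusted p = 0.00135). The probe that the array file names CYP3A4, after the human drug-metabolising enzyme, was 8.43 to 9.18 in CR HS and 7.77 to 8.17 in LW HS, a difference of 0.91 ± 0.204 (SE, adjusted p = 0.00306). Other genes of this group were GNG3 at 1.30, RNF216, a ubiquitin ligase gene, at 0.98, ARHGAP10 at 0.88 and both NUDT14 and ATL3 at 0.85. GNG3, RNF216, ARHGAP10, NUDT14, ATL3, PHF2, MLKL and CYP3A4 each had a single kept probe.

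The genes lowest in CR HS included several of macrophages and innate immunity. HRH1, the H1 histamine receptor gene (chromosome 13, 67209261 to 67411174), was not well above background on any CR HS array and was well above it on all 6 LW HS arrays. Its measured values were 5.02, 5.13 and 5.27 in CR HS and 5.94, 7.01 and 7.53 in LW HS, which makes it at least 3.38-fold lower in CR HS (adjusted p = 0.0015). This bound sets the LW HS mean against the lowest signal called well above background on each CR HS array.

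CD163, the scavenger receptor by which macrophages take up haemoglobin bound to haptoglobin, lies on chromosome 5 (63300200 to 63334497). Its brightest probe was 11.56, 11.88 and 12.27 in CR HS and 12.88, 13.21 and 13.40 in LW HS, a difference of -1.29 (SE 0.163, adjusted p = 1.21e-05). All 7 of its kept spots were called lower. They hold 5 different sequences, so 4 of the spots are pairs of the same oligo. The first 30 of the 60 bases of each sequence, 5′ to 3′ and as the array file gives them, are shown because the size of the difference varied between them:
CD163 sequence A: tgccaacaaaataagacttcaagaaggaaa
CD163 sequence B: ctggtattccaaagactgctgttgaatttc
CD163 sequence C: ggaaaatgggaattataacctggtgagttc
CD163 sequence D: ctcagttttctcaggaggagagaattctgt
CD163 sequence E: acatggaagatgcccatgttttatgccagc
The difference was -2.24 and -2.15 at the pair of spots of sequence A and -1.33 at sequence B. It was -1.32 and -1.29 at the pair of spots of sequence C, which is the brightest, and -1.11 at sequence D. At sequence E it was -0.63 (adjusted p = 0.00674). The direction was the same at each.

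**Figure D1:**
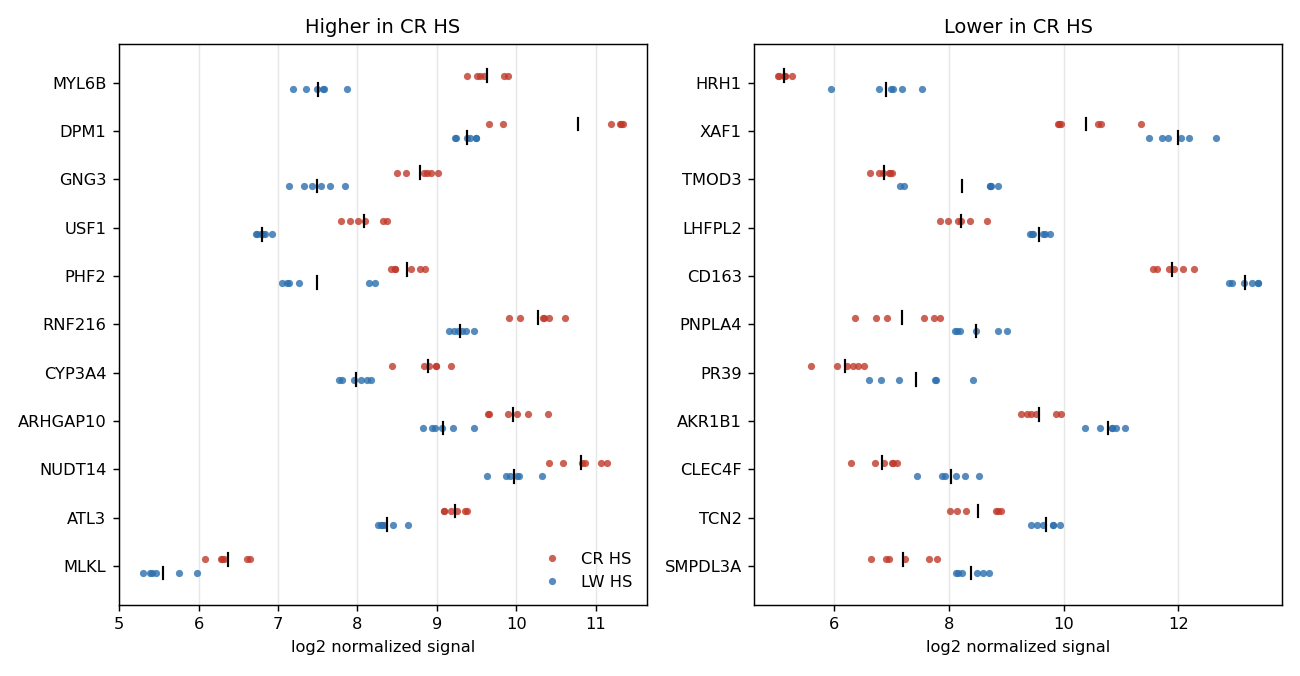
Log2 normalized signal (x axis) of each of the 6 CR HS and 6 LW HS animals for 22 of the genes with the largest differences whose values do not overlap, 11 each way; points are animals and black ticks are group means. CR HS replicates 1 and 6 lie near LW HS for DPM1, and 2 of 6 LW HS animals lie near CR HS for PHF2 and for TMOD3.

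XAF1, an interferon-inducible gene of apoptosis, was 9.90, 10.27 and 11.36 in CR HS and 11.48, 11.93 and 12.65 in LW HS, 1.59 lower on the log2 scale at its brightest probe (SE 0.353, adjusted p = 0.00279), and 1 of its 2 probes was called. CLEC4F is a lectin of liver-resident macrophages. It was 6.30, 6.93 and 7.10 against 7.43, 8.03 and 8.52, a difference of -1.19 (SE 0.235, adjusted p = 0.00108). PR39, a pig cathelicidin with antimicrobial activity, had a median of 6.27 against 7.45, with no overlap, a difference of -1.23 (SE 0.356, adjusted p = 0.0168). Of the 22 genes named for size it alone lost its call when single arrays were left out, and did so without LW HS replicate 1 (a difference of -1.03, adjusted p = 0.0531 in limma).

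TCN2 encodes transcobalamin, the plasma carrier of vitamin B12, and was lower at all 4 of its probes. The brightest was 8.02, 8.55 and 8.91 in CR HS and 9.43, 9.72 and 9.94 in LW HS, a difference of -1.19 (SE 0.234, adjusted p = 0.00108). AKR1B1, the aldose reductase gene, was lower at all 3 of its probes, by 1.22 at the brightest (adjusted p = 0.00021). TMOD3, which caps actin filaments, had LW HS replicates 3 and 6 at 7.21 and 7.14 and the other 4 between 8.72 and 8.86, against a median of 6.90 in CR HS, with no overlap. It was 1.37 lower on the log2 scale (SE 0.366, adjusted p = 0.0106), while its second, dimmer probe differed by 0.04 and was not called. LHFPL2 differed by -1.37 at its brighter probe and by 0.01 (adjusted p = 0.968) at its other, and the mean of both gave -0.68. PNPLA4, a lipid hydrolase gene on chromosome X, at -1.28 and SMPDL3A at -1.18 were also in this group. HRH1, CLEC4F and PNPLA4 each had a single kept probe.

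Of the 11 markers of resident macrophages measured, 7 were lower in CR HS, none was higher and 4 were not called (63.6% called, against 16.1% of all symbols). The median difference was -0.91 against -0.01 over all symbols. Values did not overlap between the breeds for 7 of the 11 measured markers, the same 7 that were called, against 8.16% of all symbols. The 7 were CD163, the complement recognition genes C1QA, C1QB and C1QC, the complement receptor gene VSIG4, LYZ (lysozyme) and CSF1R, the receptor for the macrophage growth factor.

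C1QB was 12.99, 13.18 and 13.52 in CR HS and 14.09, 14.33 and 14.56 in LW HS, a difference of -1.07 (SE 0.203, adjusted p = 0.000772). C1QA differed by -0.93 (adjusted p = 0.000242) with all 3 probes called, and C1QC by -0.97 (adjusted p = 0.000896) at its single probe. These 3 genes lie side by side on chromosome 6 (80586259 to 80606076). VSIG4 was 11.19, 11.36 and 11.53 against 12.11, 12.22 and 12.65, a difference of -0.91 (SE 0.167, adjusted p = 0.00054), and all 7 of its probes were called lower. CSF1R was 6.79, 6.99 and 7.18 against 7.47, 7.72 and 7.94, a difference of -0.75 (adjusted p = 0.00156). The members not called included CD68 at -0.21, CD14 at -0.16 and CD5L, a macrophage-secreted protein, at 0.16. The 7 called genes had lower means in CR TN than in LW TN too, and 5 of them were called there. F1 HS means lay between those of CR HS and LW HS for all 7.

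Of the 12 endothelial markers measured, 7 were lower in CR HS and none was higher (58.3%, against 16.1% of all symbols), with a median of -0.32. CLEC4G, a lectin of sinusoidal endothelium, was 13.83, 14.09 and 14.41 in CR HS and 14.74, 14.87 and 14.92 in LW HS, a difference of -0.74 (SE 0.117, adjusted p = 0.000144). CDH5 (VE-cadherin) was 0.86 lower with 3 of 3 probes called (adjusted p = 0.00101), TEK (the angiopoietin receptor) 0.86 lower with 3 of 4, and LYVE1 (a hyaluronan receptor) 0.69 lower with 1 of 2. STAB1 and FLT1 differed by -0.28 and -0.22, and KDR had probes in both directions, given further on. PECAM1 at -0.37 (with 1 of its 5 probes called higher), TIE1 at -0.17, ENG at -0.10, CD34 at -0.04 and VWF at 0.20 were not called. The summed signal of the 12 markers was 14.40 to 14.92 on the log2 scale in CR HS and 15.25 to 15.34 in LW HS, with no overlap.

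**Figure D2:**
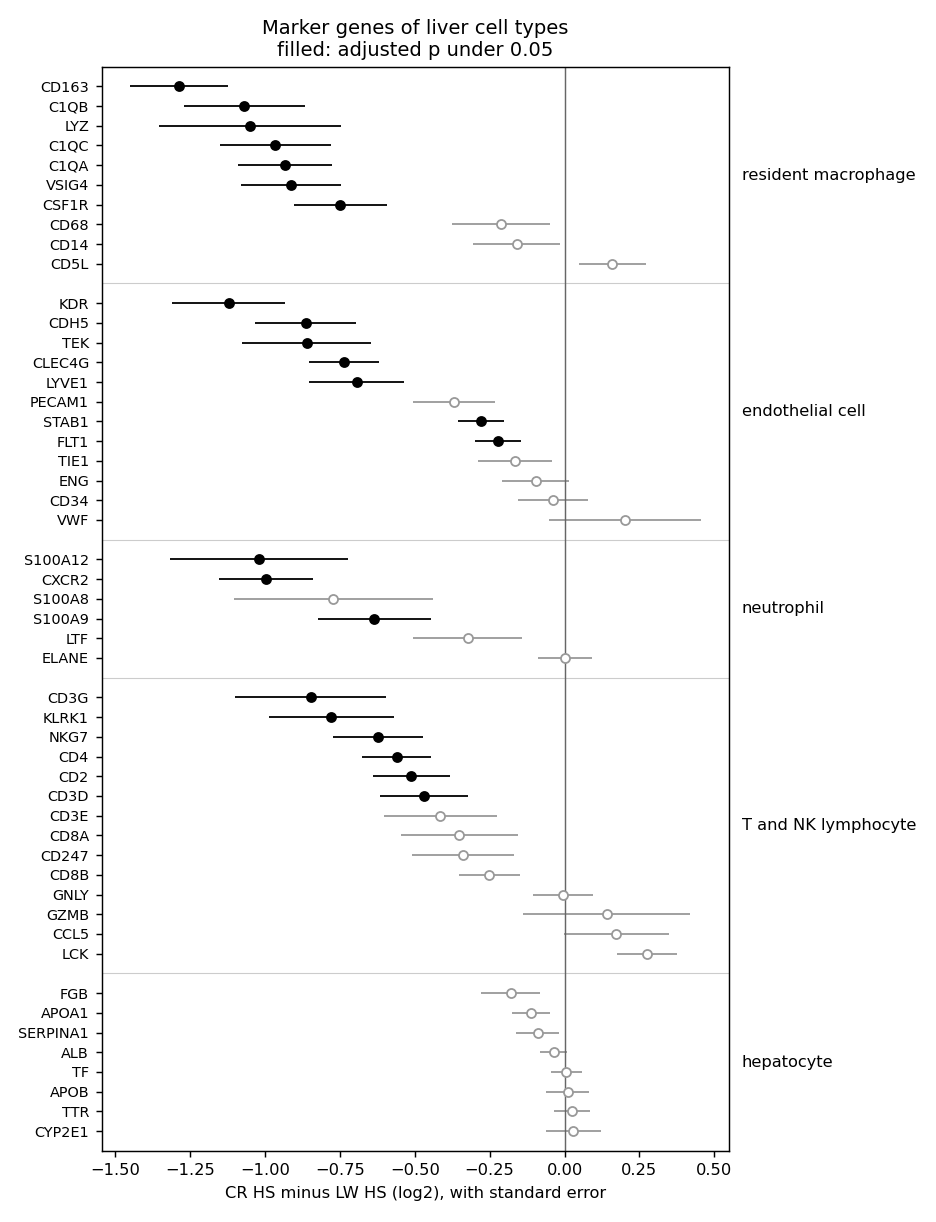
Difference CR HS minus LW HS on the log2 scale with its standard error (x axis) for markers of 5 liver cell types; filled points passed an adjusted p of 0.05. The 7 called macrophage markers lie between -1.29 and -0.75, while the 8 hepatocyte markers lie between -0.18 and 0.03.

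Of the 14 markers of T and NK lymphocytes, 6 were lower and none was higher (42.9%, against 16.1% of all symbols), with a median of -0.38. They were the T cell receptor complex genes CD3D at -0.47 and CD3G at -0.85, the surface receptors CD2 at -0.51 and CD4 at -0.56, and the cytotoxic cell genes NKG7 at -0.62 and KLRK1 at -0.78. GNLY, GZMB and CCL5, also of cytotoxic cells, differed by -0.01, 0.14 and 0.17 and were not called. The summed signal of this list overlapped, at 15.26 to 15.44 in CR HS and 15.26 to 15.84 in LW HS. Its median was higher in CR HS, at 15.39 against 15.29. Of 6 neutrophil markers, S100A12 at -1.02, S100A9 at -0.63 and CXCR2, 7.46 to 7.97 against 8.31 to 9.09, were lower (50%, against 16.1% of all symbols). The summed signal of the neutrophil list was 9.74 to 10.01 against 10.25 to 10.58. None of the 14 stellate cell and fibroblast markers was called, with a median of -0.31. Of 8 B cell markers BLNK was lower, of 8 cholangiocyte markers KRT7 was higher, and none of 6 erythroid markers was called. The summed signal of the resident macrophage list was 16.97 to 17.18 in CR HS and 17.19 to 17.40 in LW HS. No marker list was below background in both groups. The part of these cell types in the other differences given here was not tested.

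Proteins of class II presentation display peptides to T cells and are made by macrophages and other antigen-presenting cells. Of 12 measured genes, 4 were lower and none was higher (33.3% against 16.1% of all symbols), with a median of -0.46. CTSS (cathepsin S, which frees the class II groove for peptides) was 12.04, 12.40 and 12.61 in CR HS and 13.09, 13.40 and 13.62 in LW HS, a difference of -0.97 (SE 0.163, adjusted p = 0.000244), and all 12 of its probes were called lower. SLA-DRA, the alpha chain of the class II molecule, was lower at all 7 probes, by 0.84 at the brightest (SE 0.207, adjusted p = 0.00622). Its values were 11.99 to 13.28 in CR HS and 12.98 to 13.78 in LW HS, so the groups overlapped. IFI30, a lysosomal thiol reductase gene, and SLA-DMB, which loads peptide, were lower by 0.62 and 0.55 at their brightest probes, and each was called at both probes. SLA-DRB1 at -0.50, SLA-DQA1 at -0.47 and SLA-DQB1 at -0.45 did not pass the threshold.

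Class I molecules present peptides on all nucleated cells. Of 21 measured genes of the class I pathway, 3 were lower and 1 was higher. This share, 19%, was near the 16.1% of all symbols. B2M, the shared light chain, was 16.27, 16.55 and 16.77 in CR HS and 16.63, 17.01 and 17.15 in LW HS, a difference of -0.45 (SE 0.119, adjusted p = 0.00993), with 8 of 10 spots called lower. The probe that the array file names HLA-E, after the human gene, was at 7.21, 7.50, 7.47, 7.04, 9.53 and 9.53 in CR HS, while LW HS lay between 9.45 and 11.06. Of the CR HS animals, 4 thus stood apart from LW HS while replicates 5 and 6 did not, and the difference was -2.29 (SE 0.579, adjusted p = 0.00713). Within slide 5, which holds those 2 CR HS animals, the breeds differed by 0.08. SLA-6 was 0.86 lower (adjusted p = 0.00556), and TAPBP, the tapasin of the peptide-loading complex, 0.41 higher (adjusted p = 0.027). TAP1, the peptide transporter, differed by -0.12 at its brightest probe (adjusted p = 0.685). Of its 3 probes 1 was called lower, at -0.61 (adjusted p = 0.0237 in limma). Swine class I genes are near copies of each other, so a probe may report more than one of them.

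Of 40 interferon-stimulated genes, 7 were lower and 1 was higher, with a median of -0.13. Their share called, 20%, was near the 16.1% of all symbols. The probe named ISG12(A) was 14.09, 15.51 and 16.58 in CR HS and 16.23, 17.24 and 17.78 in LW HS, a difference of -1.83 (SE 0.403, adjusted p = 0.00261). IFIT2 was 8.75 to 9.27 against 9.45 to 10.67, a difference of -0.85 (adjusted p = 0.00611), with 2 of 3 probes called. IFI6 at -0.68, IFIT5 at -0.60, OASL at -0.50, IFI35 at -0.32 and XAF1 were also lower, and SAMD9 was 0.38 higher. The other 32 did not pass.

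Complement and coagulation proteins are made mostly by hepatocytes, with C1q and properdin made by macrophages and other leukocytes. Of 46 measured genes, 13 were lower and 2 higher (32.6%, against 16.1% of all symbols), with a median of -0.16. The 3 C1q genes and CFP (properdin) fell the most: CFP was 11.84, 12.24 and 12.78 in CR HS and 12.76, 13.08 and 13.38 in LW HS, a difference of -0.86 (SE 0.176, adjusted p = 0.00147). With the log2 values that the authors deposited, 20 were lower and 1 higher. The other 9 lower genes differed by -0.50 to -0.22. They included CD59, which blocks the membrane attack complex, C4BPA, with 7 of 7 probes called, KNG1 (kininogen), C2, F2 (prothrombin), C6, CPB2 and SERPINC1 (antithrombin). C9, a pore-forming component, was 0.77 higher (adjusted p = 0.00845) and F8 0.26 higher. Of 30 acute phase genes, 3 were lower and none was higher (10%, against 16.1% of all symbols). LBP, which hands bacterial lipopolysaccharide to CD14, was 0.95 lower, FGG, the fibrinogen gamma chain, 0.43 lower and AMBP 0.21 lower. SAA1, SAA2 and SAA3 differed by -0.88, -0.76 and -0.80 and did not pass, with adjusted p of 0.451 to 0.499.

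**Figure D3:**
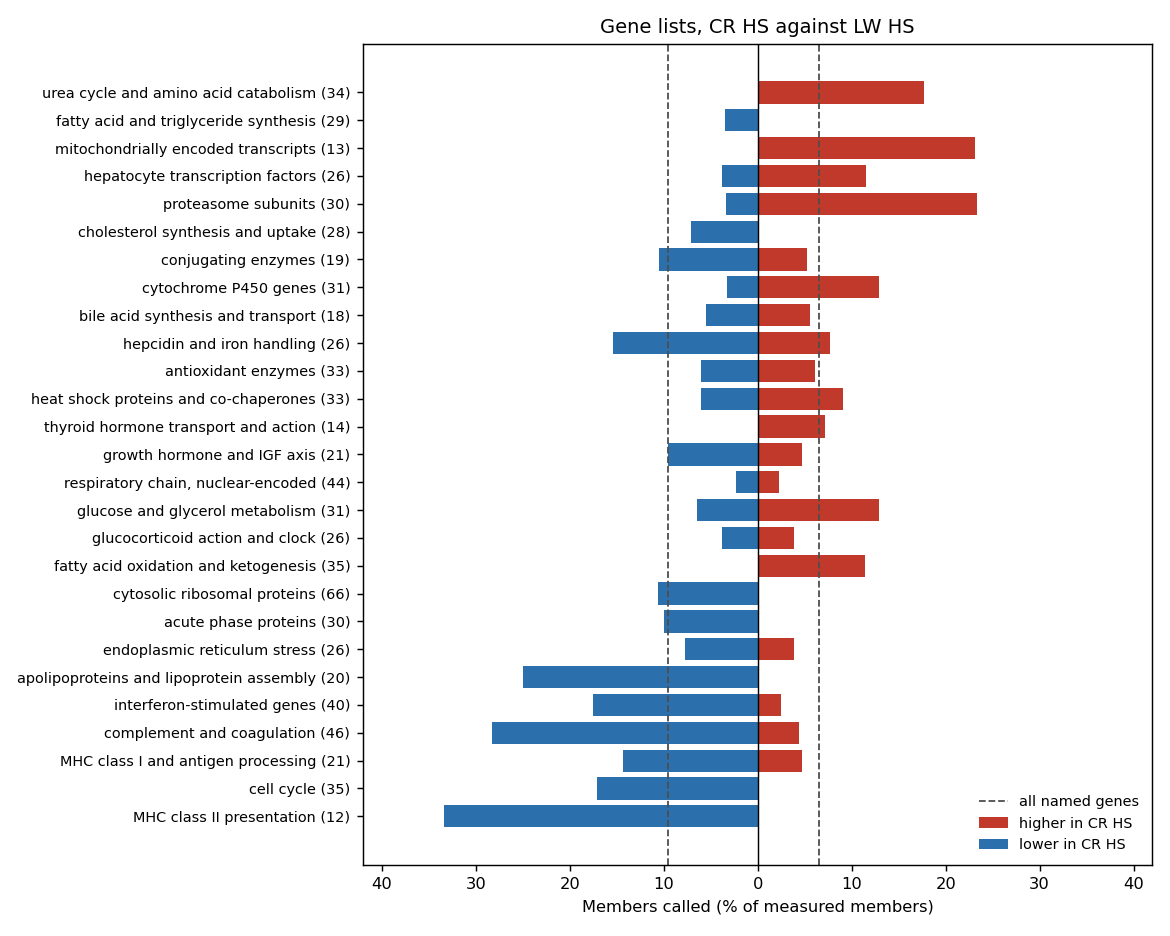
Share of the measured members of each gene list (x axis, percent; number measured in brackets) called higher (right) or lower (left) in CR HS than in LW HS, ordered by the list's median difference; dashed lines are the shares over all named genes, 6.53% higher and 9.55% lower. The lists of class II presentation, complement and coagulation, and apolipoproteins reach furthest to the left.

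Of 34 measured genes of the urea cycle and amino acid breakdown, 6 were higher and none was lower (17.6%, against 16.1% of all symbols in either direction), with a median of 0.30. HPD and HGD are successive enzymes of tyrosine breakdown. HPD was 13.03, 13.23 and 13.75 in CR HS and 12.54, 12.74 and 12.86 in LW HS, a difference of 0.56 (SE 0.116, adjusted p = 0.00174). The call was made at 2 of its 5 spots, which hold the same sequence, so 1 of its 4 different sequences was called. HGD was 12.41, 13.79 and 14.63 against 12.05, 12.40 and 13.48, a difference of 1.14 (SE 0.331, adjusted p = 0.0169) that was called at both of its probes, although the groups overlapped. In TN animals HGD differed by 0.01. BHMT, which remethylates homocysteine, was 16.41 to 16.83 against 15.75 to 16.24, a difference of 0.55 (SE 0.125, adjusted p = 0.00346), and SDSL, GLDC (glycine cleavage) and OTC (urea cycle) were higher by 0.55, 0.52 and 0.33. ARG1 at 0.66, GNMT at 0.63 and CTH at 0.58 did not pass.

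In fatty acid oxidation, 4 of 35 genes were higher, none was lower, and the median was -0.05. This was 11.4% of the list, below the 16.1% of all symbols, and with the 75th percentile scaling and with the log2 values that the authors deposited, 2 were higher and 2 lower. EHHADH, the bifunctional enzyme of peroxisomal oxidation, was 10.70, 11.24 and 11.55 in CR HS and 10.17, 10.42 and 10.58 in LW HS, a difference of 0.79 (SE 0.141, adjusted p = 0.000487), and both of its probes were called. HSD17B4, which acts in the same peroxisomal pathway, was 0.23, 0.28 and 1.04 higher at its 3 probes, all called, but its brightest probe, at 0.23, lost the call in 10 of 12 fits without a single array. ACADSB, of branched short-chain acyl-CoA, was 0.40 higher. CPT1A, the mitochondrial gatekeeper, differed by -0.53 and did not pass. Of 29 genes of fatty acid and triglyceride synthesis, PLIN2, a lipid droplet coat protein, was 0.92 lower at 1 of 2 probes (adjusted p = 0.00449), and no gene was higher. This was 3.45% of the list, below the 16.1% of all symbols. FASN was 15.99, 16.32 and 16.90 in CR HS and 14.83, 15.88 and 16.36 in LW HS, a difference of 0.61 with an adjusted p of 0.0809, and SCD differed by 0.36 (adjusted p = 0.498).

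Of 20 apolipoprotein and lipoprotein assembly genes measured, 5 were lower and none was higher (25%, against 16.1% of all symbols), with a median of -0.12. PLTP, the phospholipid transfer protein, was 8.22, 8.49 and 8.62 in CR HS and 9.37, 9.53 and 9.56 in LW HS, a difference of -1.03 (SE 0.137, adjusted p = 2.51e-05), and all 4 probes were called. LIPC (hepatic lipase) was 10.52, 10.71 and 11.20 against 11.37, 11.41 and 11.68, a difference of -0.70 (SE 0.133, adjusted p = 0.000793). APOH was 0.31 lower. PON1 (paraoxonase) was 0.55 lower at its brightest probe, but a second probe differed by 1.86 with a standard error of 0.918 (adjusted p = 0.165), so the mean of both was 0.66 higher in CR HS and not called. Of 28 genes of cholesterol synthesis and uptake, INSIG2, which restrains sterol synthesis, was 0.90 lower and called at both probes, and LIPC was the other called member. These were 7.14% of the list, below the 16.1% of all symbols. Of 18 bile acid genes, 11.1% were called, also below that share. ABCB11, the bile salt export pump, was 0.55 higher and HSD3B7, an enzyme of bile acid synthesis, 0.68 lower. CYP7A1, the rate-limiting enzyme of that synthesis, differed by -0.41 (SE 0.422, adjusted p = 0.548).

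Of 31 genes of glucose handling, 4 were higher and 2 lower (19.4%, against 16.1% of all symbols), with a median of -0.02. The balance turned with the scaling: 0 were higher and 2 lower with the 75th percentile scaling, and 1 higher and 5 lower with the authors' log2 table. SLC2A2, the liver glucose transporter, was 0.49 higher, PCK2 0.35, SLC37A4, the glucose 6-phosphate transporter, 0.31 and KHK, the fructokinase, 0.29. UGP2, which makes UDP-glucose, was 0.48 lower at 5 of 6 probes called and LDHA 0.58 lower. Of 31 cytochrome P450 genes and their regulators, 16.1% were called, the same share as over all symbols. CYP2B22 had a difference of 1.46, but its CR HS values ran from 6.28 to 10.38 and overlapped LW HS at 6.34 to 7.74 (SE 0.484, adjusted p = 0.0348). CYP2D25 was 0.40 higher, called at 1 of 3 probes. The xenobiotic receptor genes AHR and NR1I2 were 0.67 and 0.29 higher, called at 1 of 3 and 2 of 4 probes. CYP2R1, a vitamin D 25-hydroxylase, was 0.39 lower. Of 19 conjugating enzymes, MGST1 was 15.85 to 16.32 against 15.13 to 15.47, 0.77 higher at its brightest spot, and 1 of its 9 kept spots was called. MGST3 and UGT1A6 were 0.39 and 0.32 lower, each at 1 probe. Of the conjugating enzymes 15.8% were called, against 16.1% of all symbols.

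The heat shock list held 33 measured genes, of which 3 were higher and 2 lower (15.2%, against 16.1% of all symbols), with a median of 0.00. FKBP4, a co-chaperone of steroid receptors, was 14.15, 14.30 and 14.51 in CR HS and 13.50, 13.88 and 13.99 in LW HS, a difference of 0.51 (SE 0.0977, adjusted p = 0.000784) called at 1 of 3 probes. BAG1 and HSF1, the heat shock transcription factor, were higher by 0.45 and 0.23, and DNAJB6 and DNAJA4 lower by 0.57 and 0.40. DNAJA4 was called at 1 of 2 spots of the same sequence, and the other differed by -0.26 (adjusted p = 0.475 in limma). HSP90AA1 differed by 0.43 at its brightest probe (adjusted p = 0.163), with 1 of its 9 spots called higher and 2 called lower. HSPA8 at -0.44 and HSPB1 at 0.41 did not pass.

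Of 26 genes of endoplasmic reticulum stress, 11.5% were called, below the 16.1% of all symbols. XBP1, the transcription factor of the unfolded protein response, was 14.46, 14.88 and 15.07 in CR HS and 15.10, 15.43 and 15.61 in LW HS. Its difference was -0.56 (SE 0.141, adjusted p = 0.00714), and all 9 of its probes were called lower. The folding enzyme PDIA4 was 0.52 lower, the sensor ATF6 0.63 higher at 1 of 3 probes, and the chaperone HSPA5 differed by -0.29 (adjusted p = 0.501). Of 33 antioxidant genes, 12.1% were called, also below the share over all symbols. GPX3, the plasma glutathione peroxidase, was 0.94 higher and PRDX1 0.45, and PRDX4 and HMOX1 were lower by 0.52 and 0.49. PRDX4, the peroxiredoxin of the endoplasmic reticulum, was called at all 6 probes, but the calls of PRDX4 and PRDX1 at their brightest probes were lost in 9 and 8 of 12 fits without a single array.

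Of 30 proteasome subunits, 7 were higher and 1 was lower (26.7%, against 16.1% of all symbols), with a median of 0.11. With the log2 values that the authors deposited, 4 were higher and 1 lower. PSMC1, an ATPase of the regulatory particle, was 13.79 to 14.41 in CR HS and 13.52 to 13.78 in LW HS, a difference of 0.48 (SE 0.0944, adjusted p = 0.00104). It was called at 2 of 4 probes, and the others differed by 0.08 and -0.06. PSMB3 was 0.85 higher and PSMD3 0.47, each called at 1 of 2 probes. PSMA4 was 0.42 higher (2 of 3 probes), PSMB6 0.34 (1 of 4), PSMD11 0.31 (2 of 2) and PSMC5 0.29 (3 of 5). PSMD7 was 0.57 lower at its single probe (SE 0.0899, adjusted p = 0.000143). Of 13 transcripts of the mitochondrial genome, 3 were higher and none was lower (23.1%, against 16.1% of all symbols). ND4L, ND5 and ND4, subunits of respiratory complex I, were higher by 0.50, 0.49 and 0.30, with 9 of 11 ND4 probes called. Of 44 nuclear-encoded respiratory genes 1 was higher (NDUFS8, 0.46) and 1 lower (NDUFA9, -0.47), 4.55% against 16.1% of all symbols. The counts were 1 and 5 both with the 75th percentile scaling and with the authors' log2 table. Of 66 cytosolic ribosomal proteins, 7 were lower and none higher. This was 10.6% of the list, near the 9.55% of all symbols that were lower. The 7 ran from RPL9 at -0.51 and RPL3 at -0.49 to RPS12 at -0.23, with RPL7 called at 10 of 17 probes. The count was 12 lower with the 75th percentile scaling and 17 with the authors' log2 table.

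Of 35 cell cycle genes measured, 6 were lower in CR HS and none was higher (17.1%, against 16.1% of all symbols), with a median of -0.20. With the log2 values that the authors deposited, 1 was lower and 1 higher, and without LW HS replicate 3 only 1 was lower. CCNB1, the mitotic cyclin, was 6.30, 7.14 and 7.85 in CR HS and 7.25, 7.70 and 8.19 in LW HS, a difference of -0.74 (SE 0.22, adjusted p = 0.0197), and CDK1, its kinase, differed by -0.69 (adjusted p = 0.0348), with both probes called. MCM2, PCNA, BUB1 and KIF23 were 0.49, 0.42, 0.42 and 0.38 lower. In TN animals 5 of these 6 genes had the opposite sign, for example 0.40 for CCNB1 and 0.25 for CDK1, none of them called, and the median of the list was 0.17. The difference between the HS and the TN contrast did not pass for any of the 6 (CCNB1 -1.14, unadjusted p = 0.000817, adjusted p = 0.978).

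In the growth hormone and insulin-like growth factor axis, 3 of 21 genes were called (14.3%, against 16.1% of all symbols). There IGFBP6 was 8.53, 9.09 and 9.49 in CR HS and 9.50, 9.92 and 10.07 in LW HS, a difference of -0.85 (SE 0.164, adjusted p = 0.000917). IGF2 was 0.33 lower with 8 of 9 spots called, IGF1R 0.48 higher at 1 of 3 probes, and IGF1 differed by -0.22 (SE 0.361) at its representative probe. Another of the 4 IGF1 probes was called lower, at -0.43 (adjusted p = 0.016 in limma). Of 26 genes of glucocorticoid action and the clock, 7.69% were called, against 16.1% of all symbols. HSD11B1, which regenerates cortisol, was 16.30, 16.34 and 16.61 against 16.70, 16.77 and 16.89. Its difference was -0.40 (SE 0.0714, adjusted p = 0.000487), called at 6 of 7 probes. The clock gene PER2 was 0.70 higher. Of 14 thyroid hormone genes, 7.14% were called, also below the 16.1% of all symbols. RXRA was 0.30 higher, called at 1 of 2 probes, and the deiodinase DIO1 differed by -0.48 (adjusted p = 0.382). In iron handling, 2 of 26 genes were higher and 4 lower (23.1%, against 16.1% of all symbols). BMP2, which drives hepcidin in the liver, was 0.69 lower (adjusted p = 0.0013), STEAP4 0.42 and SMAD6 0.34 lower, and NCOA4, the receptor for ferritin breakdown, 0.80 and SLC39A14 0.39 higher. HAMP (hepcidin) itself ran from 9.29 to 16.84 in CR HS and from 9.16 to 15.11 in LW HS, and differed by 0.65 with a standard error of 1.49 (adjusted p = 0.816). Among hepatocyte transcription factors, PROX1 was 0.74 higher with 3 of 4 probes called, and NR2F2 0.56 lower at 1 of 3.

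To ask whether heat changed the breed difference, the HS contrast was set against the same contrast in TN animals. No probe passed limma's test of that difference, in which the smallest adjusted p was 0.978, while the unadjusted p was under 0.05 for 2008 probes (4.48%). In TN animals alone, 1988 probes (4.44%) differed between the breeds. Of the probes called in HS, 1371 were called in TN with the same direction, 18.4% of the HS calls and 69.0% of the TN calls, and none was called with the opposite one. The sign was the same in TN for 7170 of the 7463 HS calls (96.1%), with TN medians of 0.25 over the probes higher in CR HS and -0.27 over those lower. Without LW TN replicates 1 and 6 the TN count was 4034.

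Among the 22 genes named for the size of their difference in HS, 10 of the 11 higher and all 11 lower ones had the same sign in TN, where 8 and 8 of them were called. ATL3, which shapes the endoplasmic reticulum, differed by 0.18 in TN and by 0.85 in HS, MLKL by 0.05 and 0.82, and CYP3A4 by -0.02 and 0.91. The test of the difference gave unadjusted p of 0.000858, 0.00228 and 0.00267 for these 3 genes, which did not pass after adjustment. These 3 were singled out after their values were seen.

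**Figure D4:**
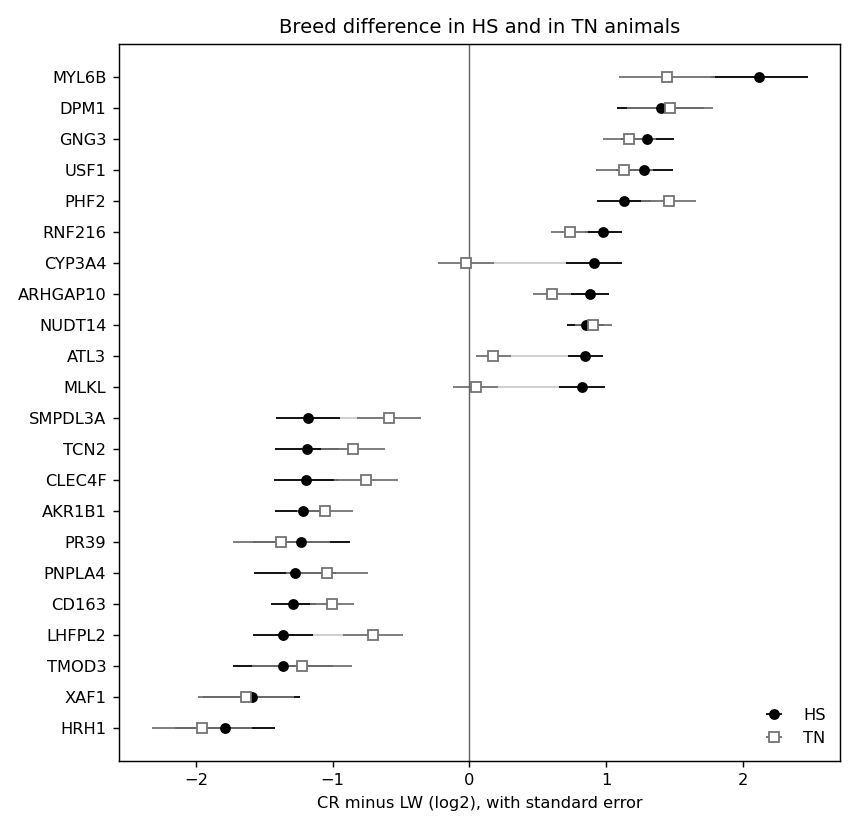
Breed difference, CR minus LW on the log2 scale with its standard error (x axis), in HS animals (filled circles) and in TN animals (open squares) for the 22 genes named for the size of their difference in HS. The pairs lie on the same side of 0 for 21 of the 22 genes, and ATL3, MLKL and CYP3A4 lie near 0 in TN.

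The 5 symbols with the smallest p for the difference between the contrasts were STX10, SEPW1, NAT10, TMEM55A and RRAS. SEPW1, a selenoprotein gene, was 12.43, 12.53 and 12.84 in CR HS and 12.92, 13.01 and 13.06 in LW HS, 0.43 lower in HS, where all 3 probes were called, while the TN difference was 0.20 (unadjusted p of the difference = 0.000138). NAT10, an RNA acetyltransferase gene, was 0.50 higher in HS and differed by -0.08 in TN (unadjusted p = 0.000363). TMEM55A was not well above background on any CR HS array and was at least 1.31-fold lower there than in LW HS, so its difference between HS and TN is not measured on both sides. STX10, a syntaxin gene, differed by -0.14 in HS and was 0.27 higher in TN, and RRAS differed by -0.23 in HS and 0.31 in TN. None of the 5 passed after adjustment.

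The mean of the F1 HS animals fell between the CR HS and LW HS means for 86.4% of the called probes. The same held for 21 of the 22 genes named for size. Both sets were chosen for a difference between CR HS and LW HS, which favours a mean in between. The share over all probes was not computed. CD163 had a mean of 12.41 in F1 HS, and CLEC4F one of 7.51. The exception was PHF2, at 8.63 in F1 HS. On the first principal component the F1 HS animals themselves were split. Replicates 1 and 2, at -17.03 and -21.30, lay between the ranges of the CR HS and LW HS animals. Replicates 3, 4, 5 and 6, at 33.46, 36.89, 14.65 and 22.80, lay within or above the CR HS range of 11.98 to 35.37.

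For 58 of the 785 symbols with at least 2 called probes, probes were called in opposite directions, so that a single direction for the gene cannot be given. CXCL16, MRPL33, KDR, DDX18 and EPHX2 had the widest gaps. The first 30 of 60 bases of the probes that disagree most are shown for 4 of them, as the array file gives them, 5′ to 3′, since the direction goes with the sequence measured:
CXCL16 lower: cctcagcttcattatgttcctgtggcatca
CXCL16 higher: agagcaacatcaggagggcagctgggggtg
MRPL33 lower: tgaaggccattgtgaaggaaaacaatgcag
MRPL33 higher: tcttactccaaaagcctaggtcctgaagca
KDR lower: tctacatcatagtaaaagcggatttggttt
KDR higher: ttcaagtgttgttctttccaccgccaggaa
EPHX2 lower: tcactctcaaaaagaagggattttcaacct
EPHX2 higher: gcagtttagaatcatttcagcagatctggg
MRPL33, a mitochondrial ribosomal protein gene, differed by -1.06 (SE 0.153, adjusted p = 6.94e-05) at its lower probe and by 0.83 (SE 0.208, adjusted p = 0.00684) at its higher one, and the means of these probes were 9.23 and 9.25 in CR HS and 10.29 and 8.42 in LW HS. KDR, the main receptor for vascular endothelial growth factor, differed by -1.12 (SE 0.188, adjusted p = 0.000238) and by 0.48 (SE 0.0971, adjusted p = 0.00144), and another probe by -0.15 (adjusted p = 0.244). CXCL16, a chemokine gene, differed by -1.06 to -1.08 at 3 spots of 2 sequences, all called lower, and 0.85 higher at the other (adjusted p = 0.0479).

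EPHX2, an epoxide hydrolase gene, was 0.66 higher at its brightest probe (adjusted p = 0.0301), at a mean of 14.79 in CR HS and 14.13 in LW HS, and lower by 0.67 and 0.44 at its other sequences. DDX18, an RNA helicase gene, had 2 probes higher, by 0.92 and 0.42, 1 lower, by 0.42, and 4 not called. Sequence differences between the breeds were not measured here, under these probes or under those of the other genes, including genes with a single probe. The positions of the probes within the transcripts were not determined.

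**Figure D5:**
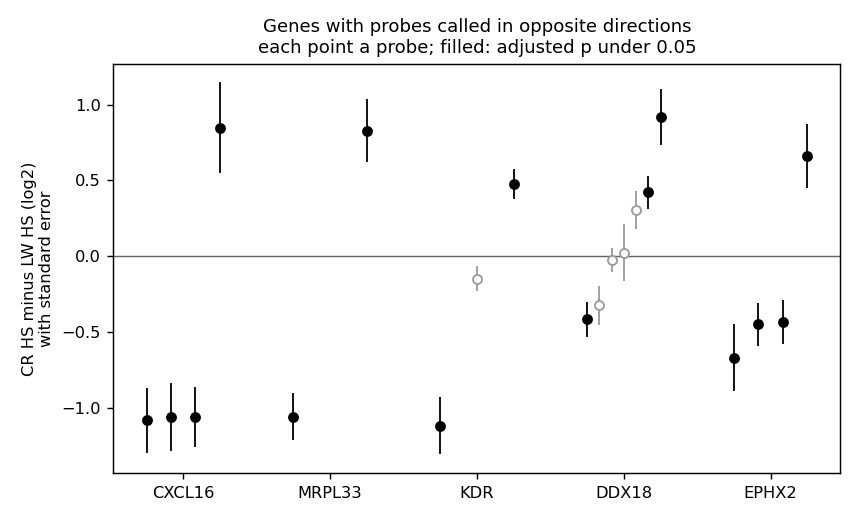
Difference CR HS minus LW HS on the log2 scale with its standard error (y axis) for each kept spot of the 5 genes with the widest gap between probes called in opposite directions; filled points passed an adjusted p of 0.05. Each gene has filled points on both sides of 0.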

How the data were processed

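The 36 arrays, each of the liver of 1 castrated male pig, were 1-colour Agilent arrays. The authors deposited each array's scanner output, whose median spot signals are intensity values, and a table of their own log2 values, used here as an alternative. The median signal was quantile normalized over 60306 non-control spots and put on the log2 scale. Non-uniform spots (107) were left out, and of 60305 probes the 44796 that 6 or more of the 36 arrays measured well above background were tested. Differences were estimated with limma 3.58.1 in R 4.3.3, with the 6 groups of breed and temperature as a means model over 36 arrays, so that all groups share 1 estimate of spread, and p-values were Benjamini-Hochberg adjusted over the kept probes at 0.05. Fold changes are log2 differences, CR minus LW. Probes were named through RefSeq (Sscrofa11.1) by accession, gene number, symbol or synonym, and 1304 keep the name in the file. Genes named for size were the 12 largest differences each way among called genes whose groups do not overlap. Some genes that the rules chose are not reported here, while counts over lists include them. The members and lists were chosen with earlier results of these data known. On simulated data for CR HS against LW HS with 44723 probes, 59.0% of changes of 0.5 and 92.0% of changes of 1 log2 unit were recovered. The simulation changed only a small part of the probes and drew independent noise for each animal, without litters, pens or slides. Its rates may therefore differ from those in these data, and the test of HS against TN was not simulated. The number of arrays limits the precision.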

Additional observations from a re-analysis of the deposited data

Results flagged for a closer look

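In 10 of 256 sets of 6 animals tested, 1 animal lay far from the other 5 relative to the range of the set; chance flags about 1 in 20 sets. In CR HS, replicate 4 was lowest for PLIN2 (6.70, the others from 7.02 to 7.19) and highest for ACADSB (16.42, the others from 15.89 to 16.08). Replicate 2 of CR HS was lowest for HSD17B4 (14.16, the others from 14.44 to 14.54). In LW HS, replicate 1 was lowest for B2M (16.63, the others from 16.96 to 17.15) and for MCM2 (6.44, the others up to 7.28). Replicate 6 was lowest for IFI30 (9.35, the others from 9.84 to 10.05), replicate 3 for HSD3B7 (9.39, the others from 9.71 to 9.89) and replicate 2 for FGG (17.19, the others from 17.44 to 17.59). Replicate 5 was highest for PER2 (8.73, the others from 8.09 to 8.30) and replicate 4 for IGF1 (9.68, the others from 8.22 to 8.61). Values are on the log2 scale.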

How the results depend on the processing

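No paired analysis was run, as the CR and LW animals are different pigs of different breeds. Litter, pen and replicate numbers are not in the labels. With slide as a fixed block 7160 probes were called. The count of probes differing between CR HS and LW HS (7463) was 5438 to 7580 when single arrays were left out, and 1920 of 11451 with one value per gene. It was 6713 with no filter on dim probes, 8144 with the authors' log2 table and 8158 with the 75th percentile scaling. Fitting only the arrays compared gave 8325 probes, and array weights gave 10179. Leaving out whole slides, an alternative chosen after seeing the data, gave 2687 without slide 3, 2692 without slide 4 and 4904 without slide 5. No probe passed the test of HS against TN under any alternative run, with 1200 to 2866 probes, or 508 of 11451 with one value per gene, at an unadjusted p under 0.05. The TN count (1988) was 1071 (without CR TN replicate 3) to 2662 (without LW TN replicate 6), with 1085, 1194, 1155 and 1183 without LW TN replicates 2, 3, 4 and 5. It was 953 with the authors' log2 table, 1259 with slide as a fixed block, 3179 with array weights, 657 with one value per gene, 4034 without LW TN replicates 1 and 6, and 740, 253 and 981 without slides 2, 3 and 4. The cause was not tested.

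Of 114 named genes called, 85 kept their call in all 12 fits without a single array, 80 in the 11 other alternatives and 52 in the 5 fits without a slide. For the 22 genes named for size these were 21, 21 and 18. The 4 that lost a call without a slide were DPM1 (adjusted p = 0.0613) and TMOD3 (0.134) without slide 4, PNPLA4 (0.0559) without slide 5, and PR39 without slides 3 and 5 (0.0742 and 0.0501). PR39 also lost its call with the authors' log2 table (0.0503), all in limma. Calls of HSD17B4, PRDX4, PRDX1, CYP2B22, MCM2, AHR, RXRA, SLC2A2, SDSL, AMBP, HMOX1, NR1I2 and UGT1A6 were lost in 6 or more of the 12. With one value per gene, PON1 turned to 0.66, EPHX2 to -0.22 and HSP90AA1 to -0.14. Among genes not called at their representative probe, HAMP ranged from -0.20 to 1.61 when single arrays were left out. IGF1 was 0.048 without slide 4 and TAP1 0.016 without slide 5. Probes near background and the number of arrays limit what could be called.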
